A study of Mus musculus with 12 samples.

Results

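The results concern 10 genes of the muscle cytoskeleton: Ttn, Tcap, Neb, Actn2, Ldb3, Myot, Myoz2, Xirp1, Xirp2 and Des, which encode titin, the titin cap, nebulin, desmin and 6 further scaffold proteins of the Z-disc and its surroundings. They were chosen by name, with earlier results of these data known, and were 10 of the 20201 genes in the deposited table. All 10 had a row in the table and all 10 passed the minimum mean of 10 normalized counts, so all were among the 12553 genes tested. The samples were 12 RNA sequencing libraries of mouse primary myotubes, the multinucleated fibres that myoblasts form in culture. The myoblasts carried a floxed Bmal1 gene in every library, and Bmal1 (Arntl in the table) encodes the activator of the circadian clock. For 48 hours the myotubes received an adenovirus, either empty or with the Cre recombinase that excises floxed sequence, and the last step was 6 hours in 21% or 1% oxygen.

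The labels give 2 groups of 6 libraries: wildtype in 21% oxygen (libraries 1 to 3 and 7 to 9 by title) and Bmal1 knockout in 1% oxygen (libraries 4 to 6 and 10 to 12). The design text describes 4 conditions, so genotype and oxygen cannot be told apart by the labels alone. Each label covers 2 runs of title numbers, and these runs are called sets here: 1 to 3 and 4 to 6 are the first sets, 7 to 9 and 10 to 12 the second sets, with 3 libraries in each. No label names the animal, the culture or a batch, nor a promoter that drives Cre, and every group received a virus. The p-values therefore rest on the spread from library to library, and that spread may be technical. In bulk RNA, fewer cells of a type and less RNA per cell cannot be told apart.

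A sarcomere is bounded by Z-discs, where alpha-actinin cross-links the actin filaments of neighbouring sarcomeres. Titin spans from the Z-disc to the M-band as a molecular spring, and its Z-disc end is held by the titin cap. Nebulin runs along the thin filament, and desmin intermediate filaments tie the Z-discs of adjacent myofibrils to each other and to the membrane. Cultured myotubes assemble this scaffold as they mature.

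Promoter sequences from RefSeq (GRCm38.p6, which is mm10), 250 bases before each annotated start, were held for 6 of the 10 genes (Des, Xirp2, Ttn, Myoz2, Actn2 and Ldb3). Those of 3 genes are shown because their genes stood for different outcomes below: Actn2 lower, Xirp2 lower by more, and Des higher in the libraries labelled knockout. Capitals mark matches on either strand to CACGTG (the E-box that BMAL1 with CLOCK is known to bind), CAGCTG (an E-box of myogenic factors), the MEF2 motif (CTA and TAG with any 4 bases between), the CArG box, AGGTCA (a nuclear receptor site) or ACGTG (the core of the hypoxia response element, which lies inside CACGTG). All read 5′ to 3′ on the strand of the gene.
Actn2, chr13:12340733-12340982, minus strand: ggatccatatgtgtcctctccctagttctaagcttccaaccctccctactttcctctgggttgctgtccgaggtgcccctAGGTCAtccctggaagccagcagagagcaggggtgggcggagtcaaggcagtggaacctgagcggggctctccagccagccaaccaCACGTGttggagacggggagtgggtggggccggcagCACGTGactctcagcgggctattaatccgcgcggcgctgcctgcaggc
Xirp2, chr2:67445752-67446001, plus strand: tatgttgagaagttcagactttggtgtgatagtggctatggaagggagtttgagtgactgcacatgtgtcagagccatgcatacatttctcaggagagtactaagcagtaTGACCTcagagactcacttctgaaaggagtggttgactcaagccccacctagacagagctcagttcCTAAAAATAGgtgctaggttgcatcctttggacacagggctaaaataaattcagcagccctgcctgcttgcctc
Des, chr1:75360042-75360291, plus strand: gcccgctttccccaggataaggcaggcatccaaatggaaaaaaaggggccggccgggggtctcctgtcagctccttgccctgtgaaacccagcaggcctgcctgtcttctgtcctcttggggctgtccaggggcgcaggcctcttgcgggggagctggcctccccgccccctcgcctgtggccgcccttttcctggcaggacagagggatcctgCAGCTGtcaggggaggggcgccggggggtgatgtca

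The Actn2 window held CACGTG 84 and 48 bases before the start and AGGTCA 170 bases before it. The Xirp2 window held the MEF2 motif 74 bases before the start and AGGTCA, on the opposite strand, 140 bases before it. The Des window held CAGCTG 36 bases before the start and none of the other motifs searched. Among 32851 promoters of this length CACGTG was found in 6.02%, CAGCTG in 13%, the MEF2 motif in 3.2%, the CArG box in 1.47%, AGGTCA in 14% and ACGTG in 16.6%. Of the 6 members with a promoter, Actn2 was the 1 with CACGTG. The MEF2 motif was also found for Ttn, Myoz2 and Ldb3, CAGCTG also for Myoz2, and the CArG box and ACGTG for Ldb3. A match is a run of letters and not a measured binding site.

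The labels were checked first. Arntl had a lowest, median and highest value of 133, 156 and 179 normalized counts under the wildtype label and 41.7, 44.1 and 48.6 in the 6 labelled knockout, with no overlap. Normalized counts are reads divided by 1 size factor per library. Arntl was lower within the first sets (log2 fold change -1.70) and within the second sets (log2 fold change -1.86). The oxygen label did not separate the libraries in this way. Egln3, a prolyl hydroxylase gene that low oxygen induces, lay at 241 to 270 in the first and 2199 to 2258 in the second set labelled wildtype, and at 194 to 262 and 2036 to 2143 in those labelled knockout. Slc2a1, the glucose transporter gene GLUT1, lay at 475 to 553 and 3457 to 3514, and at 549 to 588 and 3168 to 3554. All 6 hypoxia-induced genes examined were higher in the second set of both labels, so these genes go against the oxygen label, and the libraries are named below by label and set and not by oxygen.

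The libraries held 6376584 to 12463339 reads, and 12 very abundant genes took 50.8% to 66.7% of them. These 12 were taken from the most abundant genes as those that were not protein-coding, or Lars2. Abundant coding genes such as Col3a1 were not among them. Library 2, labelled wildtype, listed 29.6% of genes at 0, against 13.0% to 21.9% in the other 11. A floor of 3 reads for detection equalled 2.12 to 5.85 normalized counts depending on the library, and none of the 10 genes was at or under that floor in any library. Summed normalized counts of the myotube markers were 11303 to 15180 under the wildtype label and 20524 to 22401 under the knockout label. Acta1 was the most abundant of them, with means of 4253 and 9393. Of the 10 myotube markers 9 were tested, of which 5 were higher and 2 lower, while 10.2% of all genes tested were higher and 9.07% lower. Mymx, the remaining one, had a mean of 7.2. The summed fibroblast markers reached 62021 to 67824 and 67703 to 75669, with Col3a1 the most abundant, and smooth muscle markers 6474 to 7714 and 7723 to 8275. Endothelial markers summed to 938 to 1089 and 1302 to 1553. Of the 6 tested, Pecam1 and Cdh5 were higher and 4 were not called. Myoblast markers summed to 1012 to 1242 and 1270 to 1395, with the proliferation gene Mki67 the most abundant. Of the 5 tested, Mki67 was higher, Myf5 was lower and 3 were not called, with a median log2 fold change of -0.12. Macrophage and leukocyte markers stayed at 44.6 to 72.8 and 60.4 to 95.4, with the defining gene Ptprc at 1.9 or less. The adipocyte sum, over 2 of 5 markers with a row, was 97.2 to 226 and 111 to 258, and Adipoq did not exceed 0.9. The cardiomyocyte sum was 940 to 1212 and 2045 to 2217, carried by Tnnt2, which immature skeletal muscle also expresses, whereas Myh6, Nppa and Nppb were at 0 in 9, 10 and 9 of the 12 libraries. The myotube, myoblast, endothelial, smooth muscle and cardiomyocyte sums did not overlap between the labels, and the fibroblast and macrophage sums did. The smooth muscle sums, with Acta2 the most abundant, were nearly adjacent (7714 and 7723), and all 6 of those markers were tested and not called. For single genes, 12.4% of all tested had labels without overlap. The adipocyte sum moved with the set, at 97.2 to 123 and 210 to 226 in the first and second sets labelled wildtype and 111 to 147 and 224 to 258 in those labelled knockout. The part of these sums in the results on the 10 genes was not tested.

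Between the labels, 7 of the 10 genes passed the limma test at an adjusted p under 0.05, with Des and Ldb3 higher and Myot, Tcap, Xirp2, Actn2 and Ttn lower in the libraries labelled knockout. Of all genes tested 19.2% passed, 10.2% higher and 9.07% lower (1277 and 1139 genes). Scaling by total reads outside the 12 very abundant genes, not by size factors, turned this split into 643 higher and 2083 lower. This setting, called abundant genes left out below, moved the median of all genes to -0.15. It changed both the genes and the kind of scaling, and their parts were not separated. Neb, Xirp1 and Myoz2 did not pass. The labels did not overlap for 6 of the 10 (Tcap, Myot, Xirp2, Des, Actn2 and Ldb3), against 12.4% of all genes. Because the 10 were chosen with earlier results known, these counts beside the shares of all genes carry no test. The median log2 fold change of the 10 was -0.32, against -0.00 for all genes tested. The scaffold genes thus did not share a direction: myotilin fell 7.28-fold on the log2(value + 1) scale, while desmin rose 2.13-fold. The plot of all genes tested by level places the 10 against the rest.

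**Figure D1:**
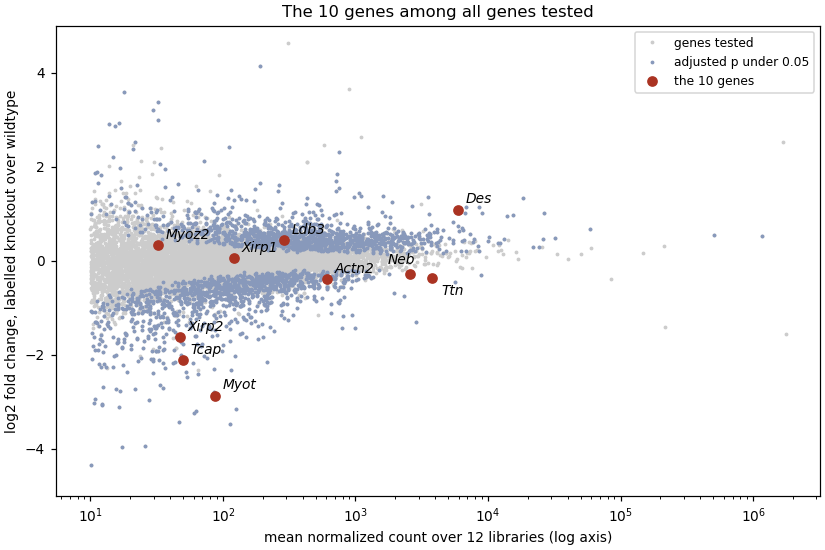
Log2 fold change of the libraries labelled knockout over those labelled wildtype against the mean normalized count over 12 libraries (log axis), 1 point for each of the 12553 genes tested, blue where the limma adjusted p was under 0.05 and red for the 10 genes. Myot lies lowest of the 10 at -2.86 and Des highest at 1.09, with Xirp1 close to 0.

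Titin and its cap differed in size of change. Ttn (ENSMUSG00000051747, chromosome 2, 76703980 to 76982547, minus strand) encodes the giant spring protein. Its normalized counts were 4268, 4784 and 4155 in the first and 3988, 3912 and 4262 in the second set labelled wildtype. In the sets labelled knockout they were 3178, 3171 and 2885, then 3375, 3243 and 3962. The labels overlapped, through library 12 (3962) lying above the lowest wildtype library. The labels averaged 4228 ± 308 and 3303 ± 361 (SD, n = 6 in both), for a log2 fold change of -0.36 (SE 0.08, limma adjusted p = 0.00468). Within the first sets Ttn fell with no overlap (log2 fold change -0.51, SE 0.08, limma adjusted p = 9.49e-04). Within the second sets the values overlapped and the test was not passed (-0.21, SE 0.08, limma adjusted p = 0.115). Ttn passed in the second sets under quantile scaling (-0.48, limma adjusted p = 0.00320), with the abundant genes left out (-0.36, limma adjusted p = 0.00658) and without library 12 (-0.29, limma adjusted p = 0.0342). The difference between these 2 contrasts was itself not past the threshold (0.31, limma adjusted p = 0.553).

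The titin result moved when transcript length and GC content were corrected for together. Ttn has the longest transcript of the 10, 106824 bases, and the 324 tested genes with 10 kb or more had a median log2 fold change of -0.16 in the first sets, where 13.3% were called lower, against 0.22 for the 2605 genes under 2 kb, of which 4.18% were. In the second sets the medians were 0.05 and 0.04. When a trend with transcript length and GC content was removed from each library, the Ttn log2 fold change was -0.20 between labels (limma adjusted p = 0.0820), -0.09 within the first sets (limma adjusted p = 0.540) and -0.30 within the second (limma adjusted p = 0.0370).

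Tcap (ENSMUSG00000007877, chromosome 11, 98383811 to 98384953, plus strand) encodes telethonin, which joins the ends of 2 titin molecules in the Z-disc. It read 100, 101 and 88.8 normalized counts in the first and 76.0, 64.4 and 57.8 in the second set labelled wildtype. In the sets labelled knockout it read 19.0, 13.7 and 21.3, then 17.5, 22.5 and 14.3. Every library labelled knockout lay below every library labelled wildtype. The labels averaged 81.3 ± 18.2 and 18.1 ± 3.60 (SD, n = 6 in both), for a log2 fold change of -2.10 (SE 0.19, limma adjusted p = 6.71e-06). The fall was 5.21-fold within the first sets (limma adjusted p = 2.52e-05) and 3.54-fold within the second (limma adjusted p = 2.60e-04). Inside the wildtype label the second set lay wholly below the first (33.9% of all genes had wildtype sets without overlap), but the difference did not pass the test (log2 fold change -0.55, limma adjusted p = 0.128).

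Nebulin did not pass the main test. Neb (ENSMUSG00000026950, chromosome 2, 52136647 to 52378474, minus strand) encodes the protein that lies along the actin filament. Its normalized counts were 3158, 3379 and 2291 in the first and 2964, 2477 and 2824 in the second set labelled wildtype. In the sets labelled knockout they were 2575, 1844 and 2369, then 2509, 2330 and 2369. The labels overlapped, and libraries 3 (wildtype) and 5 (knockout) were the lowest of their labels. The labels averaged 2849 ± 410 and 2333 ± 258 (SD, n = 6 in both), for a log2 fold change of -0.28 (SE 0.10, limma adjusted p = 0.0761). Neb passed without library 3 (-0.34, limma adjusted p = 0.0318), under quantile scaling (-0.55, limma adjusted p = 0.00418), with the abundant genes left out (-0.44, limma adjusted p = 0.00822), with the set as a term (-0.28, limma adjusted p = 0.0479) and with DESeq2 on the recovered reads (-0.29, DESeq2 adjusted p = 0.0448). Within the first sets its log2 fold change of -0.37 did not pass (limma adjusted p = 0.0878), but did in the same settings other than the set as a term, which was not fitted there (-0.69 to -0.39, highest adjusted p = 0.0436).

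The alpha-actinin gene fell by a small amount. Actn2 (ENSMUSG00000052374, chromosome 13, 12269426 to 12340760, minus strand), whose promoter holds both CACGTG matches shown above, encodes the actin cross-linker of the Z-disc. It measured 669, 606 and 604 normalized counts in the first and 808, 634 and 859 in the second set labelled wildtype. It measured 554, 457 and 515, then 567, 519 and 570, in the sets labelled knockout. All 6 libraries labelled knockout were below all 6 labelled wildtype. The labels averaged 697 ± 110 and 530 ± 43.2 (SD, n = 6 in both), for a log2 fold change of -0.38 (SE 0.10, limma adjusted p = 0.0160). Within sets, the test was not passed in the first (-0.30, limma adjusted p = 0.0756) and passed in the second (-0.46, limma adjusted p = 0.0131). The first call was gained under quantile scaling (-0.40, limma adjusted p = 0.0275), with the abundant genes left out (-0.46, limma adjusted p = 0.0114), with the length and GC trend removed (-0.34, limma adjusted p = 0.0469) and without library 8 (-0.30, limma adjusted p = 0.0349). The second call was lost without library 7, 9 or 11 (limma adjusted p = 0.0628, 0.0626 and 0.0540).

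Ldb3 moved the other way. Ldb3 (ENSMUSG00000021798, chromosome 14, 34526603 to 34588682, minus strand) encodes the PDZ-LIM protein ZASP, which binds alpha-actinin. Its normalized counts were 257, 184 and 232, then 282, 247 and 283, in the first and second set labelled wildtype. They were 354, 361 and 328, then 285, 326 and 339, in those labelled knockout. The labels did not overlap, although library 10 (285) lay just above library 9 (283). The labels averaged 247 ± 36.8 and 332 ± 27.1 (SD, n = 6 in both), for a log2 fold change of 0.43 (SE 0.11, limma adjusted p = 0.0112). With the abundant genes left out the change was 0.28 and no longer passed (limma adjusted p = 0.0814). It rose within the first sets (0.64, SE 0.12, limma adjusted p = 0.00300) and did not pass within the second (0.22, limma adjusted p = 0.249).

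Myotilin fell most of the 10. Myot (ENSMUSG00000024471, chromosome 18, 44334074 to 44355724, plus strand) encodes an actin-bundling Z-disc protein that binds alpha-actinin and filamin. It read 155, 152 and 133 normalized counts in the first and 184, 136 and 153 in the second set labelled wildtype. In the sets labelled knockout it read 25.5, 17.4 and 16.0, then 21.4, 12.4 and 32.4. The lowest wildtype library, at 133, stood far above the highest knockout library, at 32.4. The labels averaged 152 ± 18.3 and 20.9 ± 7.26 (SD, n = 6 in both), for a log2 fold change of -2.86 (SE 0.20, limma adjusted p = 1.05e-06), the 15th lowest of the 12553 genes. The log2 fold change was -2.86 within the first sets (limma adjusted p = 3.40e-05) and -2.87 within the second (limma adjusted p = 5.01e-05).

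Myoz2 (ENSMUSG00000028116, chromosome 3, 123006206 to 123035015, minus strand) encodes calsarcin-1, which links alpha-actinin to calcineurin. Its normalized counts were 29.9, 6.19 and 33.6, then 43.1, 34.7 and 35.0, in the sets labelled wildtype. They were 36.3, 32.3 and 39.9, then 33.1, 34.9 and 26.7, in those labelled knockout. The labels overlapped, and library 2, at 6.19, stood apart below the rest. That value was 4 reads, in a library where the floor of 3 reads equalled 4.65 normalized counts. The labels averaged 30.4 ± 12.6 and 33.9 ± 4.42 (SD, n = 6 in both), for a log2 fold change of 0.33 that did not pass (limma adjusted p = 0.597) and was -0.06 without library 2.

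The pair of Xin repeat genes behaved differently from each other. Xirp2 (ENSMUSG00000027022, chromosome 2, 67446002 to 67526614, plus strand) encodes an actin-binding Xin repeat protein. It read 63.4, 77.4 and 89.7 normalized counts in the first and 74.5, 62.3 and 59.2 in the second set labelled wildtype. In the sets labelled knockout it read 19.0, 14.9 and 21.3, then 35.1, 19.2 and 30.5. No library labelled knockout reached the lowest library labelled wildtype. The labels averaged 71.1 ± 11.6 and 23.3 ± 7.76 (SD, n = 6 in both), for a log2 fold change of -1.61 (SE 0.21, limma adjusted p = 1.19e-04). It fell 4.01-fold within the first sets (limma adjusted p = 1.60e-04) and 2.32-fold within the second (limma adjusted p = 0.00552). The difference between those contrasts was 0.79 on the log2 scale and did not pass (limma adjusted p = 0.582).

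Xirp1 (ENSMUSG00000079243, chromosome 9, 120013755 to 120023598, minus strand) encodes Xin, an actin-binding protein known from regenerating muscle. Its normalized counts were 144, 164 and 131 in the first and 80.4, 111 and 94.2 in the second set labelled wildtype. They were 122, 118 and 119, then 135, 115 and 122, in the sets labelled knockout. The knockout libraries thus lay below the wildtype libraries in the first sets and above them in the second, with no overlap in either. Over all 12 libraries the labels averaged 121 ± 31.5 and 122 ± 6.80 (SD, n = 6 in both), and the log2 fold change of 0.05 did not pass (limma adjusted p = 0.863). The changes within sets, -0.28 and 0.39, did not pass either (limma adjusted p = 0.177 and 0.0807), nor did their difference (0.67, limma adjusted p = 0.541). The first passed with the abundant genes left out (-0.44, limma adjusted p = 0.0360), and the second with library weights (0.37, limma adjusted p = 0.0425), without library 2 (0.39, limma adjusted p = 0.0434) and without library 8 (0.50, limma adjusted p = 0.0459). Groups of 3 without overlap were common, at 34.5% of genes in the first and 40.2% in the second sets.

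Desmin was the most abundant of the 10 and rose. Des (ENSMUSG00000026208, chromosome 1, 75360329 to 75368579, plus strand) encodes the muscle intermediate filament protein. It measured 3713, 3466 and 3723 normalized counts in the first and 4175, 3469 and 4419 in the second set labelled wildtype. It measured 8219, 7802 and 7839, then 8355, 8219 and 8292, in the sets labelled knockout. The 2 labels were far apart, with the highest wildtype library at 4419 and the lowest knockout library at 7802. The labels averaged 3828 ± 388 and 8121 ± 238 (SD, n = 6 in both), for a log2 fold change of 1.09 (SE 0.07, limma adjusted p = 2.72e-07). The log2 fold change was 1.13 within the first sets (limma adjusted p = 2.01e-06) and 1.05 within the second (limma adjusted p = 4.53e-06). The antisense gene Gm15179, which overlaps Des, had a mean of 0.199.

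**Figure D2:**
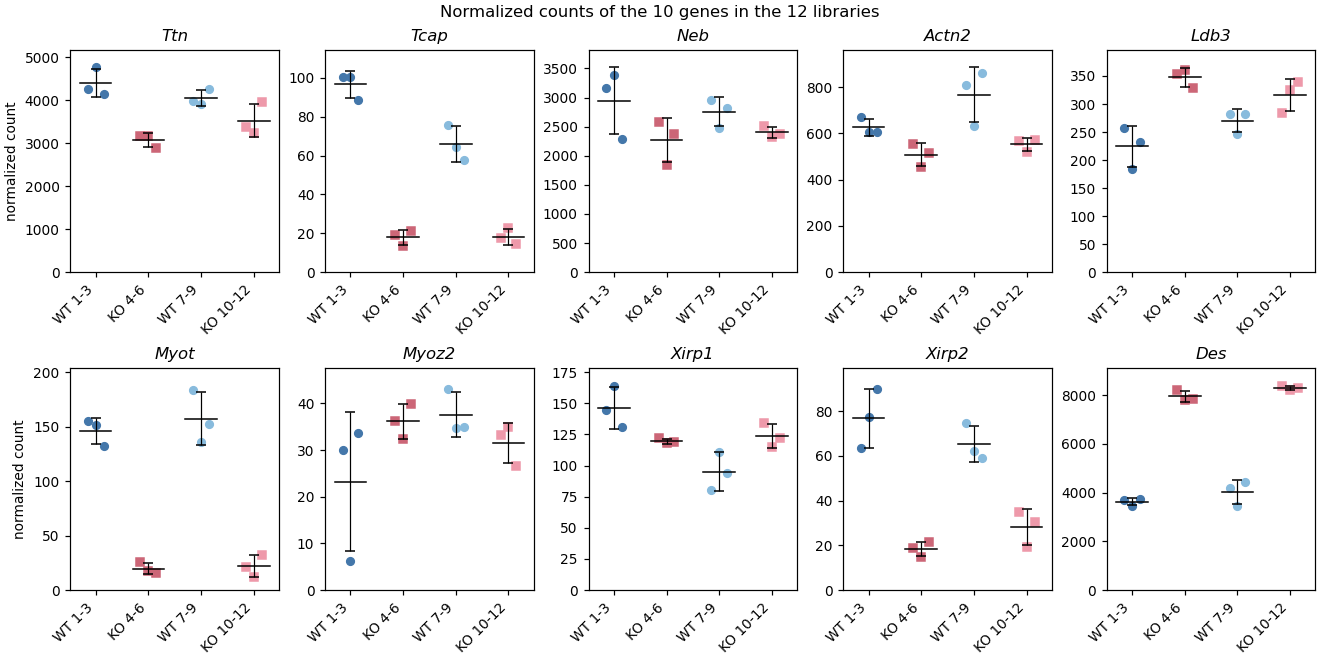
Normalized counts of the 10 genes in each of the 12 libraries, 1 panel per gene, by set (WT and KO for labelled wildtype and knockout, with title numbers), with the set mean as a black line and its SD as a bar (n = 3). Des lies at 3466 to 4419 in both sets labelled wildtype and at 7802 to 8355 in both labelled knockout, Tcap and Myot show the opposite order, and the second wildtype set of Xirp1 lies below the other 3 sets.

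The comparison was then made set by set. In the first sets 6 of the 10 genes passed (Des and Ldb3 higher, Tcap, Myot, Xirp2 and Ttn lower), where 18.8% of all genes did (10.8% higher and 7.97% lower), and 5 in the second (Des higher, Tcap, Myot, Xirp2 and Actn2 lower), where 16.5% did (8.84% higher and 7.64% lower). A group of 4 genes, Tcap, Myot, Xirp2 and Des, was called in the same direction in both, as were 10.1% of all genes tested. None of the 10 had a limma adjusted p under 0.05 for the difference between the 2 set pairs, in which 1 of the 12553 genes (0.00797%) passed. An unadjusted limma p under 0.05 for that difference was found for 4 of the 10 and for 1070 of the 12553 genes. In that test edgeR and DESeq2 called none of the 10. On simulated counts the same test recovered 30% of 2-fold and 1% of 1.5-fold differences. With 3 libraries per set, a 2-fold difference was thus often missed and a 1.5-fold difference nearly always.

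**Figure D3:**
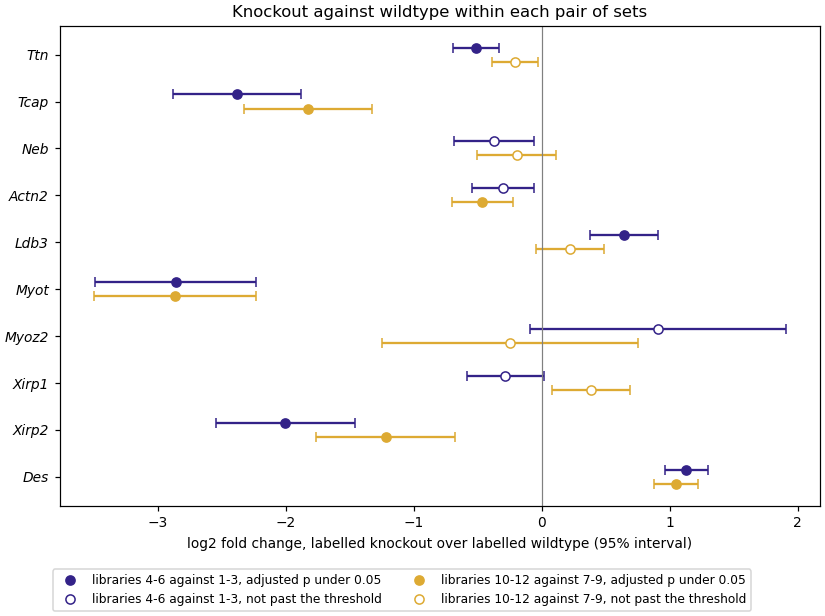
Log2 fold change of each of the 10 genes, labelled knockout over labelled wildtype, with its 95% interval, within the first sets (libraries 4 to 6 against 1 to 3) and within the second sets (libraries 10 to 12 against 7 to 9). Filled points had a limma adjusted p under 0.05: Tcap, Myot, Xirp2 and Des are filled in both, Ttn and Ldb3 in the first and Actn2 in the second.

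The 2 sets of a label, which differed in Egln3 and Slc2a1, were compared next. Within the wildtype label Xirp1 was lower in the second set (log2 fold change -0.62, SE 0.14, limma adjusted p = 0.00815) and was the 1 of the 10 that passed, against 16.8% of all genes. Its means there were 146 and 95.2 normalized counts. Actn2 and Des also passed without library 8 (0.41 and 0.24, limma adjusted p = 0.0174 and 0.0225), and Ttn under quantile scaling (-0.34, limma adjusted p = 0.0182). The sets labelled knockout did not overlap for Ttn and Des, as for 39.8% of all genes. Within the knockout label none of the 10 passed in limma, edgeR or DESeq2, against 19% of all genes. An unadjusted limma p under 0.05 was found for 2 of the 10, against 3931 of the 12553 genes tested. The 2 were Ttn (log2 fold change 0.19, limma adjusted p = 0.132) and Xirp2 (0.56, limma adjusted p = 0.145). Ttn passed there with library weights (0.22, limma adjusted p = 0.0425) and Xirp2 without library 11 (0.81, limma adjusted p = 0.0396). The Des intervals for the second against the first set were -0.03 to 0.31 in the wildtype and -0.11 to 0.23 in the knockout label. For Myot they were -0.53 to 0.73 and -0.54 to 0.72, which leaves room for changes in either direction.

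Levels of different genes were compared per length, as normalized counts per kb of the longest annotated transcript. In the libraries labelled wildtype Des led at 1264 ± 128 per kb, followed by Actn2 (231 ± 36.5), Neb (127 ± 18.2), Tcap (85.8 ± 19.2), Myot (68.8 ± 8.28), Ldb3 (48.3 ± 7.18) and Ttn (39.6 ± 2.89; SD, n = 6 each). Xirp1 (20.7 ± 5.40), Myoz2 (12.6 ± 5.23) and Xirp2 (5.93 ± 0.970) were lowest. Neighbours in that order did not overlap between Des, Actn2 and Neb, between Myot and Ldb3, and between Ttn and Xirp1, while the other neighbouring pairs overlapped in their values. In the libraries labelled knockout the order was Des (2682 ± 78.8 per kb), Actn2 (176 ± 14.3), Neb (104 ± 11.5), Ldb3 (64.9 ± 5.30), Ttn (30.9 ± 3.38), Xirp1 (20.9 ± 1.16), Tcap (19.0 ± 3.80), Myoz2 (14.0 ± 1.83), Myot (9.45 ± 3.29) and Xirp2 (1.95 ± 0.648). There the values of Xirp1 and Tcap, Tcap and Myoz2, and Myoz2 and Myot overlapped, and the other neighbours did not. Tcap went from place 4 to 7 and Myot from 5 to 9, while Ldb3 went from 6 to 4.

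**Figure D4:**
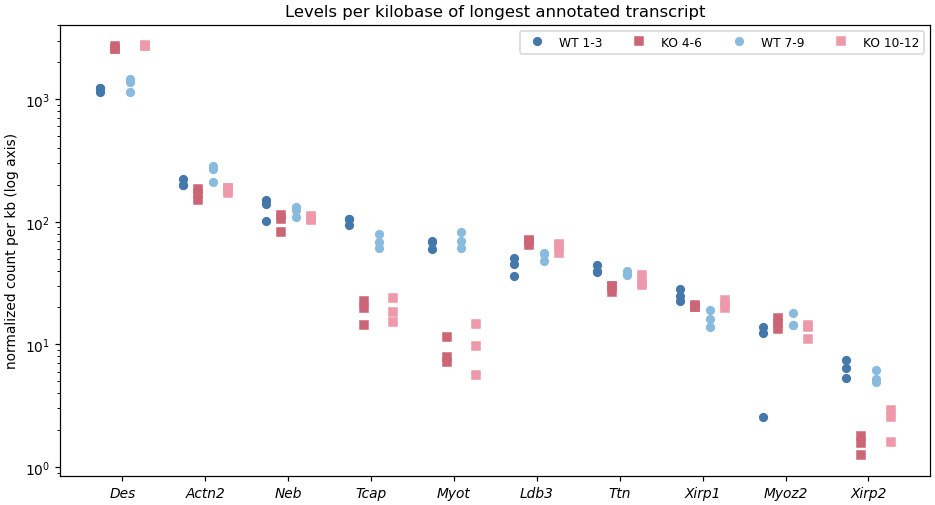
Normalized counts per kb of longest transcript (log axis) of the 10 genes in the 12 libraries, each set in its own colour, with genes ordered by their level in the libraries labelled wildtype. Des, Actn2 and Neb hold the first 3 places under both labels, and Tcap and Myot drop from 85.8 and 68.8 to 19.0 and 9.45.

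Ratios of members within a library do not depend on its scaling. Binding partners or relatives were compared in 6 pairs by two-sided exact permutation tests over the 924 ways to relabel the libraries, with the pairs chosen after the values of single genes were known. Desmin per titin, both per kb, rose from a mean of 32.1 to 87.4 (mean log2 difference 1.45), and titin cap per titin fell from 2.16 to 0.628 (-1.80). Myotilin per alpha-actinin fell from 0.300 to 0.0532 (-2.54), ZASP (Ldb3) per alpha-actinin rose from 0.210 to 0.372 (0.82), and Xirp2 per Xirp1 fell from 0.302 to 0.0925 (-1.71). For each of these 5 the exact permutation p was 0.00216, the smallest possible, and 0.0026 when adjusted over the 6 pairs. Each of the 5 held a gene whose labels did not overlap, so a low p was largely built in. The adjustment does not cover that choice of pairs. Nebulin per titin had means of 3.20 and 3.38 (log2 difference 0.08, exact permutation p = 0.483). The 5 differences had the same sign within the first and within the second sets, for desmin per titin 1.65 and 1.26 and for myotilin per alpha-actinin -2.62 and -2.47, where 3 against 3 libraries cannot give an exact p below 0.1.

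**Figure D5:**
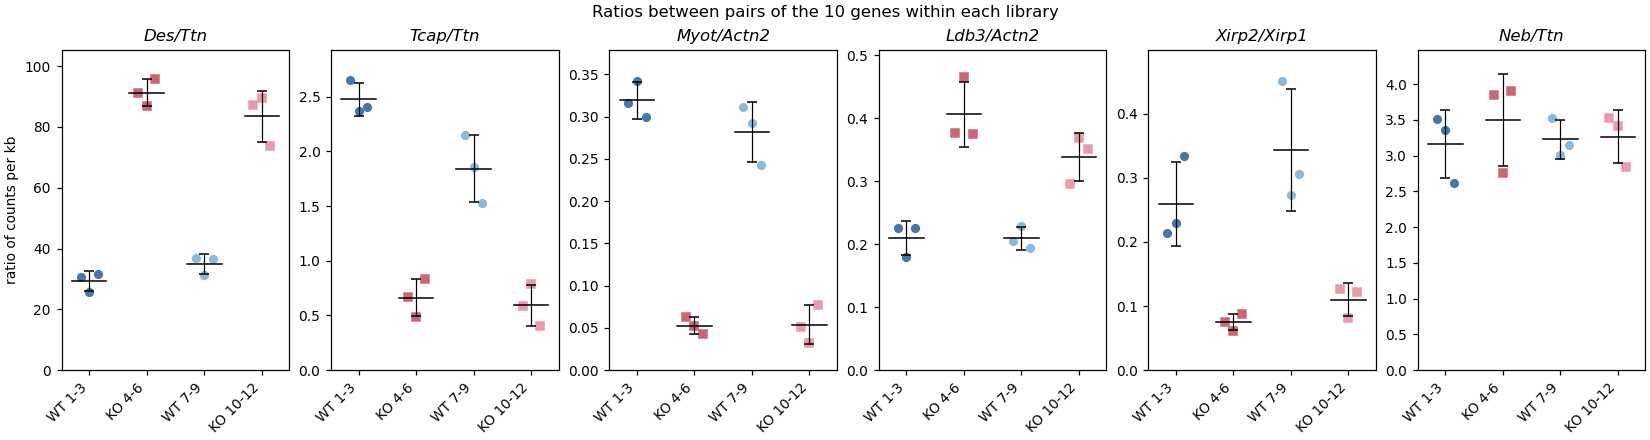
Ratios between 6 pairs of the genes (normalized counts per kb, linear axis from 0) in each of the 12 libraries by set, with the set mean as a black line and its SD as a bar (n = 3). The 2 labels are apart for 5 pairs, and Neb per Ttn has means of 3.20 and 3.38.

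The makeup of the reads that fell on the 10 genes shifted accordingly. Titin took 31.5% to 37.0% of them in the libraries labelled wildtype and 20.4% to 25.1% in those labelled knockout. Desmin took 26.8% to 33.9% and 52.6% to 56.4%. The 10 together made up 0.284% to 0.346% and 0.340% to 0.368% of the reads outside the 12 abundant genes.

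Other genes of the same structures were counted between the labels from 4 lists, to be read against the 10.2% of all genes that were higher and the 9.07% that were lower. The lists, too, were chosen with earlier results of these data known. Of 20 tested Z-disc genes outside the 10, 5 were higher and 7 lower (median log2 fold change -0.05). Actn3, the fast-fibre alpha-actinin, rose from 550 ± 108 to 1393 ± 78.0 normalized counts (mean ± SD over 6 libraries, limma log2 fold change 1.36). Capzb, the barbed-end capping subunit, rose from 769 ± 22.6 to 1042 ± 59.0 (0.44). Mypn, myopalladin, fell from 159 ± 21.5 to 63.3 ± 11.6 (-1.32), and Itgb1bp2, melusin, from 119 to 52.9 (-1.14). Actn2 and Actn3 therefore moved in opposite directions, and the values of neither gene overlapped between the labels.

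Of 18 tested titin-linked and M-band genes 4 were higher and 6 lower (median -0.28), against 10.2% and 9.07% of all genes. Ankrd23, a titin-binding ankyrin repeat gene, fell from 277 ± 34.1 to 88.9 ± 21.3 normalized counts (mean ± SD over 6 libraries, limma log2 fold change -1.66), and Mybpc1, slow myosin-binding protein C, from 624 to 356 (-0.81). Smyd1, a muscle methyltransferase of myosin assembly, rose from 305 to 547 (0.85), and Myom3, an M-band cross-linker, from 247 to 414 (0.74). Of 15 thin filament and nebulin-linked genes 7 were higher and 4 lower (median 0.27), against the same 10.2% and 9.07%. Acta1, skeletal actin, rose from 4253 ± 662 to 9393 ± 501 (1.16) and Actc1, cardiac actin, from 690 to 1020 (0.57). Lmod2, a leiomodin that nucleates actin, fell from 109 to 20.2 (-2.41), and Klhl40, which stabilizes nebulin, from 161 to 67.2 (-1.27). The direction was thus mixed here too, with the actins higher and the filament-length regulator Lmod2 lower.

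Of 18 tested intermediate filament and costamere genes 7 were higher and 3 lower (median 0.21), where 10.2% and 9.07% of all genes were. Nes, the intermediate filament protein nestin, rose from 1264 ± 20.2 to 2402 ± 35.7 normalized counts (mean ± SD over 6 libraries, limma log2 fold change 0.93) and Plec, the cytolinker plectin, from 2961 to 4363 (0.58). Synm, synemin, a partner of desmin, fell from 64.5 to 39.4 (-0.70), and Dtna, dystrobrevin, from 84.5 to 31.6 (-1.39). Of the 16 genes named from the 4 lists all but Plec had labels without overlap and passed within both set pairs, against 12.4% of all genes without label overlap and 10.1% called in both. These 16 were named for the size of their called change, so a high count is built in. The values of Plec overlapped, and its test was not passed within the first sets (log2 fold change 0.36, limma adjusted p = 0.0828).

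Genes with the most similar profile were named by the root mean square difference in centred log2(value + 1) over the 12 libraries, for genes whose mean was at least 50. For Des these were Tnnt2 (0.0533), Hrc (0.104) and Mylpf (0.105), for a gene whose own root mean square deviation was 0.554. For Tcap they were Popdc3 (0.26), Mstn (0.27) and Shisa2 (0.35), against 1.09 for Tcap itself. For Ttn they were Kif13a (0.0792), Fubp1 (0.0845) and Rsf1 (0.0888), against 0.215. For Xirp1 they were Dpt (0.13), Cenpc1 (0.13) and Pnn (0.13), against 0.255. These distances describe the 12 libraries, which fall into 4 sets, and carry no test.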

How the data were processed

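Stranded total RNA libraries of 12 myotube samples were sequenced, per the labels' protocols. The deposited signal is a table of size-factor-normalized counts. The submitters' processing notes list Trimmomatic 0.33, STAR 2.5.2, RSEM 1.3.3, DESeq2 and the build mm10. No source used here names the annotation behind the counting. RSEM divides reads shared by several genes by estimate. Each deposited column was whole reads divided by 1 size factor (100% of values whole within 1e-06 reads). Identifiers were named from GENCODE M21 (mm10), which held 19970 of 20201 (98.9%), and all 12 columns matched a sample title.

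Testing used limma 3.58.1 (R 4.3.3) on log2(normalized count + 1) with a trended prior. Tests were two-sided, and p-values were adjusted by Benjamini-Hochberg across the 12553 genes that reached a mean of 10, which 7648 did not. The labels were compared in a fit of 2 groups, and the set contrasts and their difference in 1 fit of 4 set means. A fold change on this scale understates the change of low genes. Ratios were compared with exact permutation tests. On the recovered reads edgeR 4.0.16 (quasi-likelihood) called 2411 genes between labels and DESeq2 1.42.0 called 2787. In simulated counts with 200 of 12553 genes changed, the label test recovered 61% of 1.5-fold and 77% of 2-fold changes, and 5 calls (3.50%) were false. That simulation held no difference between the 2 sets of a label. In the data such differences add to the spread of the label test, so its recovery there may be lower. Floors of 3 reads cover counting error only.

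The text names the 10 genes, Arntl, Egln3 and Slc2a1, up to 2 higher and 2 lower called genes per list with a mean of 50 or more, by size of change, and for Tcap, Ttn, Xirp1 and Des the 3 genes of most similar profile (predicted genes left out). Marker genes are named beside their sums. The members, the lists and the tests were chosen with earlier results of these data known. Alternatives were pseudocounts of 0.5 and 10, other filters and scalings, library weights, the set as a term, a length and GC correction, both count tests and each library left out in turn. Leaving out each library for the ratios was added after seeing the data. Python 3.11.15 computed the tables.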

Additional observations from a re-analysis of the deposited data

Results flagged for a closer look

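The 10 genes and the 6 ratios under each label, 32 groups of 6 libraries in all, were searched for a library far from the others, meaning a gap to its nearest neighbour above Dixon's 95% critical value for the share of the whole range. The search found 3, and chance gives about 1 in 20 groups. Neb stood at 1844 normalized counts in library 5 (labelled knockout), below the other 5 at 2330 or more. Xirp1 stood at 135 in library 10 (labelled knockout), above the rest, which reached 122. Myoz2 stood at 6.19, or 4 reads, in library 2 (labelled wildtype), below the others at 29.9 or more. Library 2 had the largest share of genes at 0.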

How the results depend on the processing

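Tcap, Myot, Xirp2 and Des kept their direction and stayed past the threshold between labels and within both set pairs under every alternative in which they were tested, with Des between labels at 0.78 to 1.12, lowest under quantile scaling. The 6 ratios kept direction and side of the threshold with each library left out. For every ratio except nebulin per titin the labels did not overlap, so this outcome was fixed in advance. It is therefore no check of those ratios.

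Counts of calls moved as follows, and the cause was not tested. Over all genes, 2416 were called between labels and 3785 with the set as a term, and 2069 in the second sets and 3242 with library weights. In the difference between set pairs 1 gene was called, but 0 with a pseudocount of 10, with quantile scaling and with edgeR, 3 with library weights and 29 with DESeq2. Of the 10 genes, 6 were called in the first sets. With the abundant genes left out, Neb, Xirp1 and Actn2 were called there as well and none was lost. In the second sets 5 of the 10 were called and 3 with a minimum mean of 50, which Tcap, Xirp2 and Myoz2 do not reach. Between wildtype sets 1 was called and 2 under quantile scaling, and between knockout sets 0 and, with library weights, 1. With each library left out in turn, all genes called were 1568 to 2405 in the first sets (lowest without library 4), 1190 to 3077 in the second (lowest without library 7, highest without library 2) and 1 to 4 in their difference (3 without library 2, 4 without library 3). Of the 10 genes, 1 to 3 were called between wildtype sets (3 without library 8) and 0 to 1 between knockout sets (1 without library 11).

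Sign changes were found only among values that did not pass a test in the main analysis. Between labels Xirp1 was -0.10 with the abundant genes left out and -0.020 with the length and GC trend removed, and Myoz2 -0.0097 with library weights. With that trend removed, Ttn and Neb were 0.11 and 0.032 between wildtype sets, -0.10 and -0.10 between knockout sets and -0.22 and -0.14 in the difference between set pairs. Between knockout sets it left Xirp1 at -0.13 and Des at -0.00655, and leaving out the abundant genes gave -0.038 for Xirp1 and -0.024 for Des. Under quantile scaling Des was -0.0015 between wildtype and -0.078 between knockout sets. Tcap between knockout sets was -0.00293 with upper-quartile scaling, -0.020 with quantile scaling, -0.069 without the abundant genes, -0.056 with library weights, -0.038 with edgeR and -0.020 with DESeq2. The Myot difference between set pairs was 0.0022 without the abundant genes, 0.086 with the trend removed, 0.064 with edgeR and 0.078 with DESeq2. With each library left out, ranges that crossed 0 were -0.057 to 0.15 for Xirp1 and -0.056 to 0.47 for Myoz2 between labels, -0.021 to 0.20 for Myot and -0.25 to 0.030 for Neb between wildtype sets, -0.16 to 0.16 for Tcap, -0.22 to 0.44 for Myot, -0.041 to 0.20 for Neb and -0.015 to 0.098 for Xirp1 between knockout sets, and -0.32 to 0.34 for the Myot difference.

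No paired analysis was possible because the replicate numbers follow accession order and the labels tie no library to another.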
